A study of Mus musculus with 6 samples.

Results

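The Rab GTPases are the small GTP-binding proteins that give the membranes of the cell their identity and steer vesicles between them. They were taken here as every gene whose symbol is Rab followed by a number and, where present, a letter and a further digit, which gave 59 of the 22040 genes listed in the deposited count table. Total RNA of renal cortex, from wild-type mice of the inbred C57BL/6 strain, was sequenced in 2 groups of 3 libraries. In the group called IR24h, both renal pedicles, the stalks that hold the vessels of the kidney, were clamped for 30 min and the tissue was taken after 24 h of reperfusion, a model of acute kidney injury. The comparison group is labelled sham, with no description of its surgery, and no transgene or drug is named for either group. The labels do not say that the 3 libraries of a group came from separate mice, so p-values measure the spread between these libraries, which may be technical. Renal cortex holds many cell types, and in such bulk RNA fewer cells of a type and less RNA per cell cannot be told apart.

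A Rab protein cycles between a GTP-bound form on a membrane and a GDP-bound form in the cytosol. Exchange factors load GTP, GTPase-activating proteins (GAPs) end the active state, and a prenyl anchor, attached with the help of escort proteins, holds the protein in the membrane until GDP dissociation inhibitors extract it. The GTP-bound form recruits effectors: motors, tethers and sorting proteins. In the kidney this machinery serves the heavy endocytic traffic of the proximal tubule, the apical recycling of transporters and water channels, and the building of primary cilia on tubule cells. Most of the regulation lies in the nucleotide cycle and in the location of the protein, which mRNA levels do not show.

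Of the 59 Rab genes, 52 had enough counts to be tested, 4 were higher after injury and 1 was lower. Rab11b of the recycling endosome, Rab3a of regulated secretion, Rab13 of the route to the cell junctions and Rab31 of the route between Golgi and endosome rose, and Rab34, which is needed to build cilia, fell. A gene counted as called at a Benjamini-Hochberg adjusted p under 0.05 in the quasi-likelihood test of edgeR, adjusted over all 13609 genes tested. The called share was 9.62% of the Rab genes and 16.3% of all genes tested. In the upward direction it was 7.69% against 8.65%, and in the downward direction 1.92% against 7.62%. The median log2 fold change (IR24h minus sham) of the 52 was -0.05, against 0.05 over all genes tested, and their median absolute log2 fold change was 0.58, against 0.63. The share of Rab genes called and their typical size of change were thus no larger than those of all genes. The other 47 Rab genes did not pass the test. The 7 that were not tested, namely Rab3c, Rab9b, Rab26, Rab33a, Rab37, Rab39 and Rab44, had at most 15 counts in any library, that value being Rab44 in IR24h library 3.

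**Figure D1:**
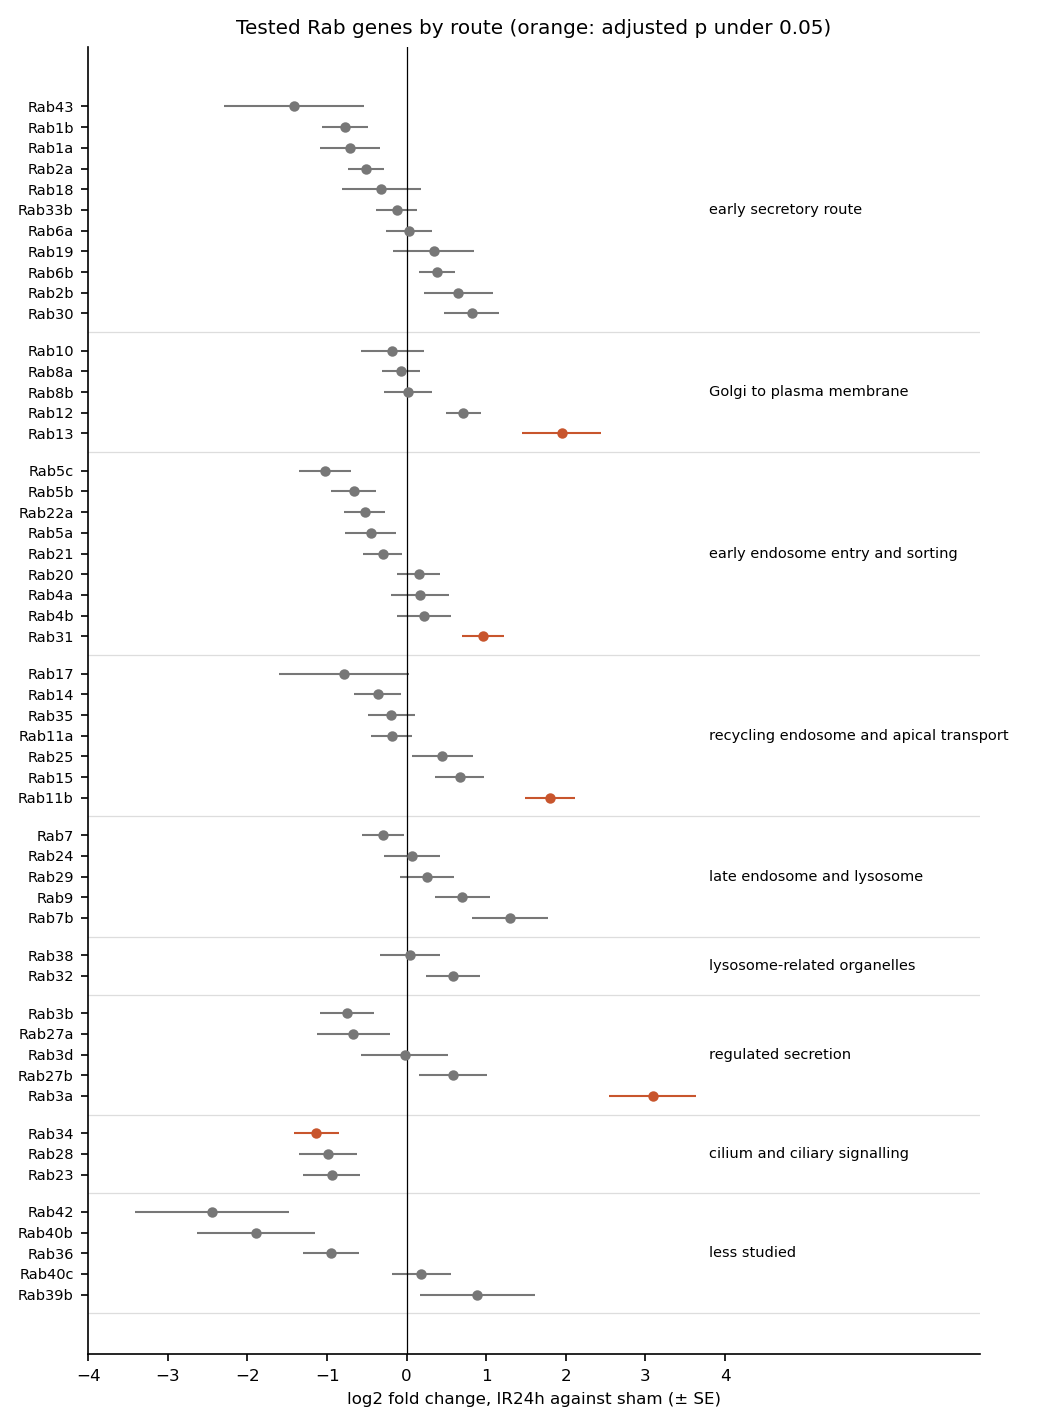
Log2 fold change (IR24h minus sham, edgeR) of each of the 52 tested Rab genes, grouped by route of traffic, with bars of 1 standard error; orange points passed the test at an adjusted p under 0.05. Values run from -2.45 for Rab42 to 3.09 for Rab3a, and the 5 called genes lie in different routes.

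The injured libraries were uneven. Totals were 14339985 to 17061844 counts in sham and 12877237 to 15998975 in IR24h. Mitochondrial transcripts took 13.1% to 14.2% of the counts in sham and 68.9%, 26.2% and 49.2% in IR24h libraries 1, 2 and 3. On log2 CPM, counts scaled to a common library size, IR24h library 2 correlated with the other IR24h libraries at 0.823 and 0.836 and with sham at 0.848 to 0.859, while IR24h libraries 1 and 3 correlated with each other at 0.916; these are correlations across genes, which are not independent replicates. CPM values below were scaled with trimmed mean of M-values (TMM) factors; under scaling by library size alone, the median over all tested genes would be -0.39 in place of 0.05. For 1681 of 12806 genes, the deposited counts and FPKM (fragments scaled by gene length and library size) imply different gene lengths in the sham and the IR24h columns, by more than 0.01 on the log2 scale, and 6 tested Rab genes are among them: Rab1b, Rab5a, Rab14, Rab18, Rab31 and Rab36. For these genes a count difference can hold a difference in what was counted.

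Markers of the labelled tissue were present, and marker genes of several cell types differed in mRNA level after injury. Of 12 proximal tubule markers 6 fell, and the sum of the list went from 27824 to 33209 CPM in sham to 14857, 11638 and 18052 CPM in IR24h libraries 1, 2 and 3. Of the IR24h sums, Kap alone held 10826, 5080 and 13814 CPM, so their order is that of Kap. Kap had overlapping groups and a log2 fold change of -0.10. Fibroblast markers rose for 5 of 6 genes, with sums of 75.6 to 89.7 CPM in sham and 1694, 303 and 689 CPM in IR24h. Leukocyte markers rose for 6 of the 12 tested of 14, from sums of 85.5 to 87.7 CPM to 249, 136 and 303 CPM, while the pan-leukocyte gene Ptprc had a log2 fold change of -0.06. Genes of tubular injury rose for 5 of 6, from sums of 286 to 339 CPM to 1420, 4988 and 3240 CPM. Podocyte markers fell for 1 of 6, distal tubule and collecting duct markers for 3 of 10 and endothelial markers for 1 of 6. All IR24h libraries lay below all sham libraries for 4, 6 and 1 of them, and for 21.7% of all genes tested. Over all genes tested, 8.65% were called higher and 7.62% lower. Of 6 adipocyte markers 1 was tested and rose, with sums of 13.5 to 23.5 CPM in sham and 76.7, 149 and 83.8 CPM in IR24h. The fat cell genes Adipoq, Plin1 and Lep had 313, 247 and 435 counts in IR24h library 2 and 0 to 3 counts in every other library. Cidec had 48, 381 and 8 counts and Cfd 22, 262 and 0 in IR24h libraries 1, 2 and 3, against 0 to 3 in sham. Fabp4, the one tested, was lowest of the IR24h libraries in library 2, at 66.8, 65.1 and 82.9 CPM. Of the leukocyte markers, Cd79a was at 0 in IR24h libraries 1 and 2 and Cd3e in IR24h library 1. The part of these differences in the Rab results was not tested.

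Promoter windows of the 5 called genes are shown because these genes moved beyond the spread of the libraries. Shares over all promoters are given after them. The windows shown come from RefSeq on build GRCm38.p6 and are written 5′ to 3′ on the strand of the gene. They hold those of the 250 bases before a start that lie outside annotated exons. Where a gene has more than 1 start, the window of the first is shown, except for Rab13, whose first window has 207 of its bases in annotated exons. Capitals mark matches, on either strand, to 6 short motifs. The GC-box was searched as GGGCGG. The CCAAT-box was searched by the letters of its name. The E-box was searched as CACGTG. The CRE, the cyclic AMP response element, was searched as TGACGTCA. For AP-1 the letters were TGANTCA, where N is any base. For the TATA-box they were TATAAA. The windows are chr17:33760588-33760736 (minus strand) for Rab11b, chr8:70754453-70754678 (plus) for Rab3a, chr3:90220534-90220783 (plus) for Rab13, chr17:65772753-65773002 (minus) for Rab31 and chr11:78188177-78188426 (plus) for Rab34.
Rab11b: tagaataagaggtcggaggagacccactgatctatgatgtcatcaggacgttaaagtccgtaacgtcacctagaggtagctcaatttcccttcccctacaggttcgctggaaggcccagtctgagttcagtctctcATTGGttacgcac
Rab3a: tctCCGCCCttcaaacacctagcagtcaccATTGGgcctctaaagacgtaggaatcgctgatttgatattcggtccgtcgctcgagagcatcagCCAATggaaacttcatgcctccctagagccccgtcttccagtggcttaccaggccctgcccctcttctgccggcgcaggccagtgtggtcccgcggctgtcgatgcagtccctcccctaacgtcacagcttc
Rab13: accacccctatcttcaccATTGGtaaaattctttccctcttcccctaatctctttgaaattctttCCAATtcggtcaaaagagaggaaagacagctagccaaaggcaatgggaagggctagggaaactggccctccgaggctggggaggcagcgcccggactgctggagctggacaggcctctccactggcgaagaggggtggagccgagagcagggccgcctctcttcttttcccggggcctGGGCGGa
Rab31: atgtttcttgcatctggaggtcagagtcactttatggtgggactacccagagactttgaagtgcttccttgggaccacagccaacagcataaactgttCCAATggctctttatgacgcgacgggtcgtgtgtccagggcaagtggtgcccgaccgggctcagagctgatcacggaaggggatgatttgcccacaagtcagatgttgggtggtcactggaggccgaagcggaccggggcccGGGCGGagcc
Rab34: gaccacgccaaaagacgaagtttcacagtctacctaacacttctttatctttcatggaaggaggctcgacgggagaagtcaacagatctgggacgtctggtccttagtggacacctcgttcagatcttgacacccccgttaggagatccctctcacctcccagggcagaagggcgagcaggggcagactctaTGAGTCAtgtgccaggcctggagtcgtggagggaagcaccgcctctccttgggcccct

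The 4 genes that rose each held at least 1 CCAAT-box in the window shown, Rab3a and Rab13 held 2 each, and the window of Rab34 held the only AP-1 match of the 5. A GC-box stood in the shown windows of Rab3a, Rab13 and Rab31. The windows not shown, of Rab3a, Rab13 and Rab34, held no CCAAT-box and no AP-1 match, and that of Rab34 held a GC-box. These matches thus depend on the window chosen. Over all 32851 promoter windows made in the same way, 33.8% held a CCAAT-box, 32.7% a GC-box and 6.7% an AP-1 match. Over the 60 full windows of the 48 Rab genes found in the RefSeq table, the shares were 40.0%, 66.7% and 3.3%. An E-box was found in 8.3% of the Rab windows and 6.0% of all windows, a CRE in 3.3% and 1.5%, and a TATA-box in 6.7% and 12.4%. A match is a description of letters and not a binding site.

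Rab11b (ENSMUSG00000077450, GRCm38 chr17:33742484-33760530, minus strand) directs cargo from the recycling endosome back to the plasma membrane. With libraries in the order of their numbers, here and below, sham had 28.5, 25.1 and 28.9 CPM and IR24h had 93.0, 63.7 and 130.4 CPM. All 3 injured libraries lay above all 3 sham libraries, with no overlap. The log2 fold change was 1.80 ± 0.31 (SE), a 3.48-fold rise, with an adjusted p of 0.0117. Of its exon bases, 5.4% lie opposite Gm17251, and 13.6% of its 50-base stretches also occur elsewhere, most often in the pseudogene Rab11b-ps2, so that some reads could have been assigned to either. The call was lost when any sham library was left out, with adjusted p of 0.0644 to 0.0770, and with scaling by library size alone, where the log2 fold change was 1.28 and the adjusted p 0.103. Leaving out a sham library lowered the called share of all genes from 16.3% to between 3.31% and 3.73%, which bears on each called gene below.

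Rab11a, the closest relative of Rab11b and the best studied Rab of recycling endosomes, did not pass the test. It stood at 55.4, 61.6 and 76.6 CPM in sham and 58.9, 64.5 and 46.4 CPM in IR24h, with overlapping groups and a log2 fold change of -0.19 ± 0.26 (adjusted p = 0.635). Rab25, the epithelial member of the same subfamily, had a log2 fold change of 0.45 ± 0.38 (adjusted p = 0.444). Rab17, a Rab of polarised epithelia, spread widely after injury, at 54.5, 14.0 and 3.32 CPM against 40.7, 36.4 and 46.3 CPM in sham (log2 fold change -0.79 ± 0.82, adjusted p = 0.528). IR24h library 1 lay above every sham library and IR24h libraries 2 and 3 below. Of the 7 Rabs of recycling and apical transport, Rab11b was the only one called, which is 14.3%, against 16.3% of all genes tested. The others were Rab14, Rab15 and Rab35, at -0.36, 0.67 and -0.19.

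Rab3a (ENSMUSG00000031840, chr8:70754679-70758677, plus strand) is best known for priming vesicles for regulated release at the synapse. It had 8, 21 and 13 counts in sham and 63, 59 and 80 in IR24h, which is 0.457, 1.01 and 0.701 CPM against 8.95, 3.02 and 6.99 CPM. The groups did not overlap. The log2 fold change of 3.09 ± 0.55 (adjusted p = 0.0122) was the highest of the 52 Rab genes. The level stayed low: on the mean FPKM of each group, Rab3a was the 51st of the 59 Rab genes in sham and the 40th in IR24h. The gene ends against Mpv17l2 on the opposite strand, whose exons overlap 1.3% of the exon bases of Rab3a. Mpv17l2 rose from 10, 12 and 12 counts to 200, 346 and 367 counts (log2 fold change 5.42 ± 0.37, adjusted p = 7.48e-04), and with no strand setting given in the sources for the counting, reads of the 2 genes cannot be told apart where they overlap. Without any 1 sham library, the adjusted p of Rab3a was 0.0521 to 0.0691.

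The other Rabs of regulated secretion did not pass the test. Rab3b stood at 4.11, 5.29 and 4.75 CPM in sham and 3.55, 2.30 and 2.62 CPM in IR24h, so that all injured libraries were below all sham libraries (log2 fold change -0.75 ± 0.34, adjusted p = 0.162). Rab3d, which coats secretory granules of exocrine cells, had a log2 fold change of -0.03. Rab27a and Rab27b, which dock secretory lysosomes and exosome-forming bodies, were at -0.67 and 0.59. Of the 8 Rabs in this group, 5 were tested; Rab3c, Rab26 and Rab37 had too few counts.

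Rab13 (ENSMUSG00000027935, chr3:90213695-90226385, plus strand) delivers junction proteins to the borders of epithelial cells and acts through the MICAL-like effectors. It was at 4.74, 4.95 and 6.53 CPM in sham and at 28.8, 7.72 and 26.3 CPM in IR24h. The groups did not overlap, but IR24h library 2 stood close to sham. The log2 fold change was 1.95 ± 0.50, with an adjusted p of 0.0380. It was 2.34 without IR24h library 2 (adjusted p = 5.70e-04) and 0.52 with that library as the only injured one (adjusted p = 0.199). The adjusted p was 0.111 to 0.148 when a sham library was left out, 0.102 without IR24h library 1 and 0.0985 without IR24h library 3. The call was thus lost in each of these cases, and without a sham library the called share of all genes fell as well. Scaling by library size alone also lost the call, at a log2 fold change of 1.30 (adjusted p = 0.0988), as did limma-voom (0.0856).

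The other Rabs from Golgi to plasma membrane included one just outside the threshold. Rab12, which sends transferrin receptor toward lysosomes and is a substrate of the kinase Lrrk2, was at 27.5, 25.6 and 25.6 CPM in sham and 46.0, 40.1 and 43.0 CPM in IR24h. All injured libraries were above all sham libraries and both groups were tight, yet the adjusted p was 0.0645 for a log2 fold change of 0.71 ± 0.22. Rab8a and Rab8b, which carry cargo to the basolateral membrane and to the cilium, were at -0.07 and 0.02. Rab10, which brings vesicles with glucose transporters to the plasma membrane, had a log2 fold change of -0.18 (adjusted p = 0.775). Its IR24h libraries straddled sham, at 53.8, 153 and 71.8 CPM against 108, 109 and 99.3 CPM.

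Rab31 (ENSMUSG00000056515, chr17:65651729-65772752, minus strand) moves cargo between the trans-Golgi and endosomes. It was at 9.88, 9.81 and 9.39 CPM in sham and 18.9, 22.9 and 14.8 CPM in IR24h. All injured libraries were above all sham libraries, IR24h library 2 being the highest. The log2 fold change was 0.96 ± 0.27 with an adjusted p of 0.0483, the called Rab gene nearest to the threshold. The implied length of Rab31 was lower in the IR24h columns by 0.18 on the log2 scale, and after division by implied length, a comparison chosen after seeing the data, the log2 fold change was 1.14 (adjusted p = 0.0245). The call was lost without any 1 sham library (adjusted p = 0.171 to 0.190) and without IR24h library 1 (0.0803). With scaling by library size alone the log2 fold change was 0.55 (adjusted p = 0.468), and the adjusted p was 0.0715 with no count filter and 0.0511 with limma-voom.

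The Rab5 paralogues, which govern fusion of early endosomes in endocytosis, all had log2 fold changes under 0 and none passed the test. Rab5c, the most abundant of them, was just outside the threshold. It was at 216, 295 and 328 CPM in sham and 120, 190 and 103 CPM in IR24h, without overlap, with a log2 fold change of -1.02 ± 0.33 (adjusted p = 0.0709). Rab5b was at -0.67 (adjusted p = 0.143), and Rab5a at -0.45 by counts (adjusted p = 0.358) and 0.80 per implied length (adjusted p = 0.122), so that no direction is given for Rab5a. Rab22a and Rab21, of early endosomal sorting, were at -0.53 and -0.30, and Rab4a, Rab4b and Rab20 at 0.17, 0.22 and 0.15. Of the 9 early endosomal Rabs, Rab31 was the only one called, which is 11.1%, against 16.3% of all genes tested.

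**Figure D2:**
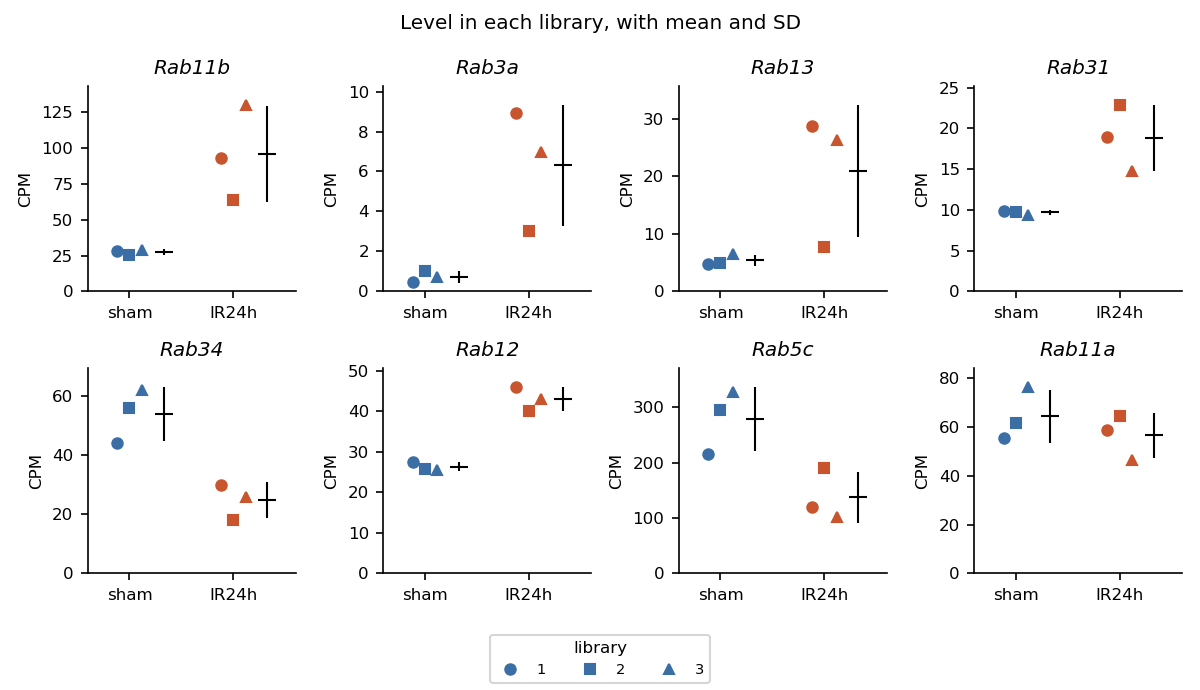
Level of 8 Rab genes in each library, in TMM-scaled CPM on axes that start at 0, with libraries 1, 2 and 3 as circle, square and triangle and the group mean with its SD as a dash with a bar: the 5 called genes, the nearest uncalled gene in each direction (Rab12 and Rab5c) and Rab11a as the relative of Rab11b. The groups do not overlap for 7 of the 8 genes, and overlap for Rab11a. Those 7 were chosen by the test on these same libraries, so their count is no further support. Over all genes tested, 19.9% had all IR24h libraries above sham and 21.7% all below.

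Rab34 (ENSMUSG00000002059, chr11:78188430-78192193, plus strand) was the only Rab gene called lower by edgeR on all libraries. It acts early in the building of the primary cilium, where the ciliary membrane forms. It was at 44.2, 56.0 and 62.2 CPM in sham and 30.1, 18.1 and 26.0 CPM in IR24h, without overlap, and the log2 fold change was -1.13 ± 0.29 (a 2.19-fold fall, adjusted p = 0.0364). The other Rabs of the cilium, Rab23, which acts in Hedgehog signalling, and Rab28, of photoreceptor and sensory cilia, were at -0.94 (adjusted p = 0.109) and -0.99 (adjusted p = 0.106). The median of the 3 was -0.99. Rab34 was not called without any 1 sham library (adjusted p = 0.0907 to 0.155) or without IR24h library 3 (0.0724), nor with upper-quartile scaling (0.0561).

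None of the 11 tested Rabs of the early secretory route, between endoplasmic reticulum and Golgi, passed edgeR's test. An unadjusted p under 0.05 was seen for 2 of them, and for 34.1% of all genes tested. The median log2 fold change of the 11 was -0.13. Rab1a and Rab1b, which are required for transport from the endoplasmic reticulum to the Golgi, were at -0.71 (adjusted p = 0.224) and -0.77 (adjusted p = 0.107), and Rab2a, of the return and of Golgi tethering, at -0.51 (adjusted p = 0.157). The value of Rab1b was 0.0417 per implied length (adjusted p = 0.929), so its count difference moved with the length that the columns imply. Rab18, of lipid droplets and the endoplasmic reticulum, was at -0.32 by counts and 1.57 per implied length (adjusted p = 0.0679), and no direction is given for it. Rab43, of retrograde transport to the Golgi, was at 70.0, 61.7 and 64.6 CPM in sham and 1.28, 36.6 and 35.1 CPM in IR24h (log2 fold change -1.42 ± 0.88, adjusted p = 0.294). IR24h library 1 was far below the rest, and 75.4% of the exon bases of Rab43 lie under another gene model on the same strand, Gm45140, to which reads could also be assigned. Rab6a and Rab6b, of the Golgi, were at 0.03 and 0.38.

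The late endosomal and lysosomal Rabs also held no called gene in edgeR's test. Of the 5 tested, 1 had an unadjusted p under 0.05, where 34.1% of all genes tested did. Rab7, the main Rab of late endosomes, was at -0.30 (adjusted p = 0.467). Rab7b, of the route from endosome to trans-Golgi, was low, with 32, 23 and 16 counts in sham and 19, 43 and 51 in IR24h; scaled for depth, its injured libraries were all above sham (log2 fold change 1.30 ± 0.48, adjusted p = 0.104). Rab9, which serves the recycling of mannose 6-phosphate receptors, was at 0.70 (adjusted p = 0.197). Rab32 and Rab38, which deliver enzymes to lysosome-related organelles such as melanosomes, were at 0.58 (adjusted p = 0.256) and 0.05 (adjusted p = 0.943). Neither of these 2 had an unadjusted p under 0.05.

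Among the less studied Rabs, 5 of 7 were tested and none passed edgeR's test. An unadjusted p under 0.05 was seen for 3 of the 5, and for 34.1% of all genes tested. Rab42 had 30, 33 and 27 counts in sham and 0, 13 and 0 in IR24h (log2 fold change -2.45 ± 0.96, adjusted p = 0.121). Rab40b, a Rab with a SOCS box that recruits a ubiquitin ligase, had 61, 47 and 21 counts against 6, 3 and 11 (log2 fold change -1.89 ± 0.75, adjusted p = 0.121). For both, all injured libraries were below all sham libraries after scaling, and in both the counts were low. Rab36 was at -0.95 (adjusted p = 0.1003).

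Counted over the family, 9 of the 52 tested Rab genes had all IR24h libraries above all sham libraries and 12 had all below, while over all genes tested these shares were 19.9% and 21.7%. In the exact two-sided permutation test over the 20 ways to assign 3 of the 6 libraries, 0.1 is the smallest p the design allows, and a gene whose groups do not overlap cannot go below it. At an unadjusted p under 0.05, 7 Rab genes were higher and 9 lower, while 34.1% of all genes tested passed in either direction.

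The number of Rab genes called moved with the choice of libraries and test. Without sham library 1, 2 or 3, edgeR called no Rab gene in either direction; 5, 4 and 4 higher and 2, 1 and 3 lower ones had an unadjusted p under 0.05. The called share of all genes then was 3.73% (2.03% higher, 1.7% lower), 3.31% (1.78% higher, 1.53% lower) and 3.51% (2.1% higher, 1.41% lower). With scaling by library size alone, 1 Rab gene was higher and 2 were lower, where 7.41% of all genes were called, 2.92% higher and 4.49% lower. DESeq2 called 6 higher and 3 lower, where it called 27.8% of all genes, 15.3% higher and 12.5% lower.

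The order of the Rab levels can be read on FPKM, which is per gene length, within each group. In sham, Rab2a was the most abundant, at 87.0, 82.9 and 80.7 FPKM, ahead of Rab5c at 64.0, 87.1 and 91.1 FPKM and Rab1b at 73.2, 66.4 and 80.2 FPKM. These 3 overlap between libraries and their order is not resolved. Rab1a, at 36.3, 38.4 and 31.6 FPKM, Rab10, at 34.7, 34.8 and 29.9 FPKM, and Rab7, at 30.6 ± 0.852 FPKM (SD, n = 3), followed below the first 3, each overlapping the next in order. The leading 3 belong to the traffic between endoplasmic reticulum and Golgi and to early endosomes. In IR24h, Rab1b, Rab2a and Rab5c again led, at 63.1 ± 34.3, 47.8 ± 22.4 and 33.8 ± 23.7 FPKM, with spreads that do not separate them. Rab11b moved from the 32nd to the 19th place, Rab13 from the 38th to the 21st and Rab34 from the 15th to the 29th. Genes of differing implied length moved too and can shift the places of others: Rab18 from 18 to 4, Rab31 from 34 to 22 and Rab5a from 17 to 9. FPKM values, as distinct from these places, were not compared between groups. Total counts include the mitochondrial transcripts, and the implied lengths differ for 6 Rab genes.

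**Figure D3:**
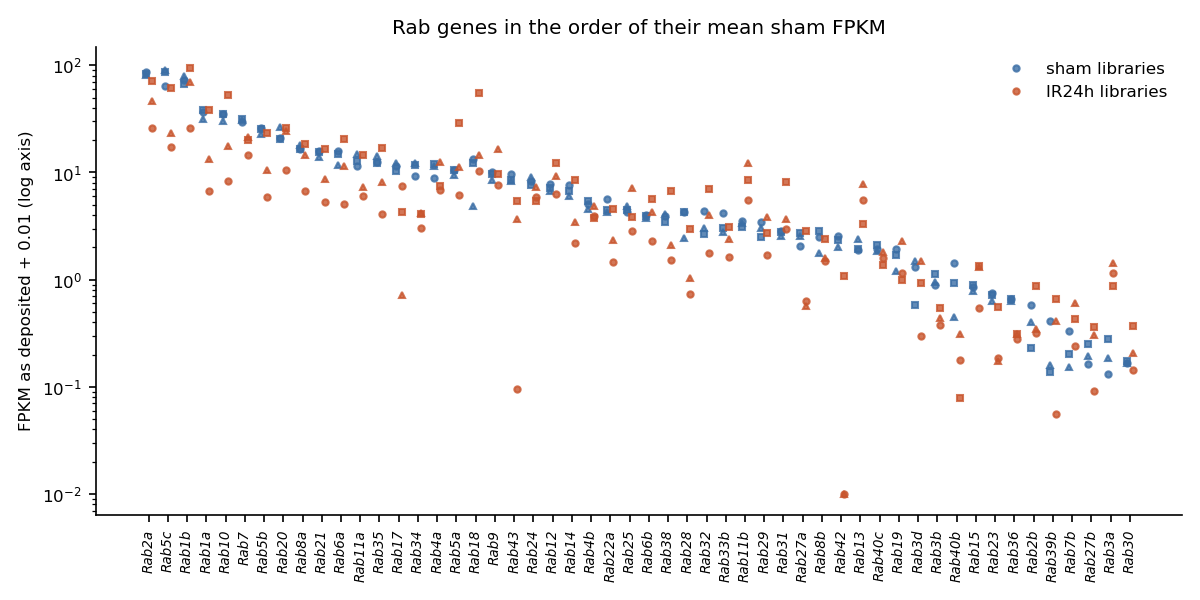
Deposited FPKM with 0.01 added, on a log axis, of the 52 tested Rab genes in each sham and IR24h library (circle, square and triangle for libraries 1, 2 and 3), ordered by the sham mean. Rab2a, Rab5c and Rab1b have the highest means in both groups, and implied gene lengths differ between the groups for 6 tested genes, among them Rab1b and Rab18.

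Close relatives in the same library share its depth and scaling, so their count ratio does not depend on either. Pairs were taken as Rab genes with the same number and different letters, a choice made after values had been seen, and 15 such pairs were compared. For 8 of them the ratio did not overlap between groups, 7 of these with equal implied lengths (exact permutation p = 0.1 for each, before any adjustment for 15 pairs). Of single genes, 19.9% had all IR24h libraries above and 21.7% all below sham; the share among pairs of other genes was not computed, so the count says nothing particular to the Rab genes. The log2 ratio of Rab11a to Rab11b was 0.96, 1.30 and 1.41 in sham and -0.66, 0.02 and -1.49 in IR24h. Rab11a was the more counted gene in every sham library, and in IR24h the ratio lay near or below equality. The log2 ratio of Rab3a to Rab3b went from -2.77 ± 0.39 (SD, n = 3) to 1.05 ± 0.57. Rab3b had more counts in all 3 sham libraries and Rab3a in all 3 injured ones. The ratio of Rab7 to Rab7b fell from 7.35 to 5.72 on the log2 scale, that of Rab2a to Rab2b from 5.60 to 4.39, that of Rab27a to Rab27b from 2.96 to 1.58 and that of Rab40b to Rab40c from -2.53 to -4.66. For Rab2b, 64.0% of the exon bases lie opposite Gm43766. For Rab4b, 65.0% lie under Gm21983 on the same strand, to which reads could also be assigned.

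**Figure D4:**
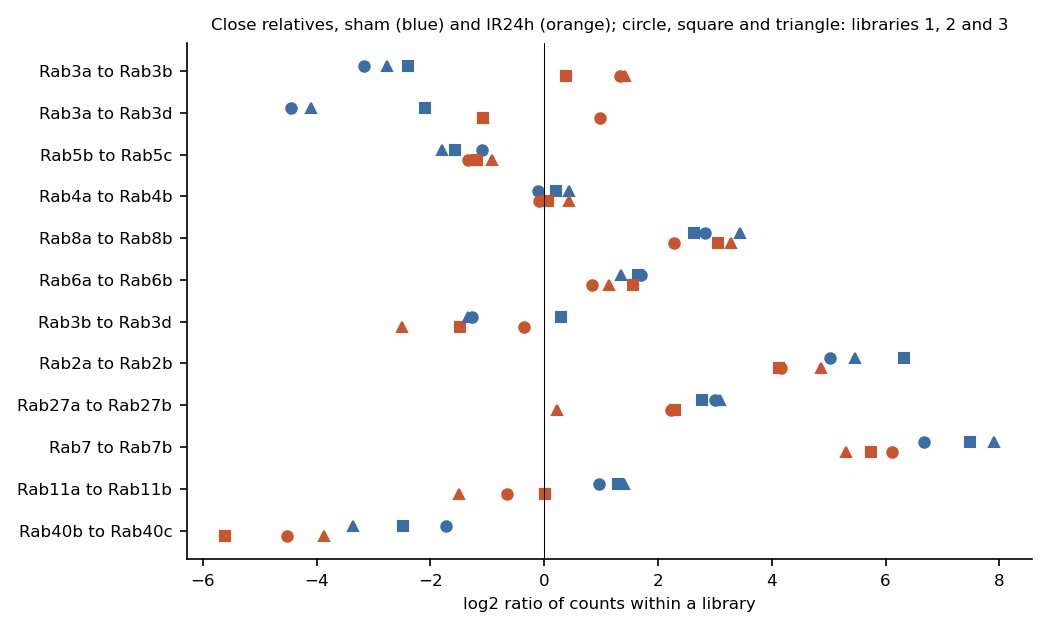
Log2 ratio of the counts of Rab genes that share a number, in each sham (blue) and IR24h (orange) library, for the 12 pairs of equal implied length. The Rab11a to Rab11b and Rab3a to Rab3b ratios change without overlap, while the Rab4a to Rab4b and Rab8a to Rab8b ratios overlap between the groups.

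The 3 injured libraries did not agree on the Rab genes. IR24h library 2 held the highest IR24h value for 24 of the 52 genes (46.2%, against 41.3% of all genes) and the lowest for 19. Without it, 22 of the 52 Rab genes were called (42.3%, against 48.3% of all genes tested then): 7 higher and 15 lower, where 23.9% and 24.5% of all genes were, with all 5 genes called on all libraries among them. The genes added upward were Rab7b, Rab9 and Rab12. Those added downward were Rab1a, Rab1b, Rab2a, Rab5a, Rab5b, Rab5c, Rab10, Rab14, Rab21, Rab22a, Rab23, Rab27a, Rab28 and Rab42, among them Rab5b and Rab5c of early endosomes and Rab1a and Rab2a of the early secretory route. These calls are on counts, and for Rab1b, Rab5a and Rab14 the implied lengths differ between the groups, so that no direction is read from them for Rab1b and Rab5a. With IR24h library 2 as the only injured library, the spread being taken from sham, 6 were higher and 7 lower (of all genes 38.1% were called, 18.8% higher and 19.2% lower). Rab10 changed direction in that comparison, with a log2 fold change of 0.55 (adjusted p = 0.0312), and stood at -0.75 without the library (adjusted p = 0.0174). Among the injured libraries, IR24h library 2 also had the lowest mitochondrial share, the lowest sums of fibroblast and leukocyte markers and the highest sum of injury genes. It held nearly all counts of the fat cell genes Adipoq, Plin1 and Lep. The part of these traits of the library in the Rab counts was not tested.

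**Figure D5:**
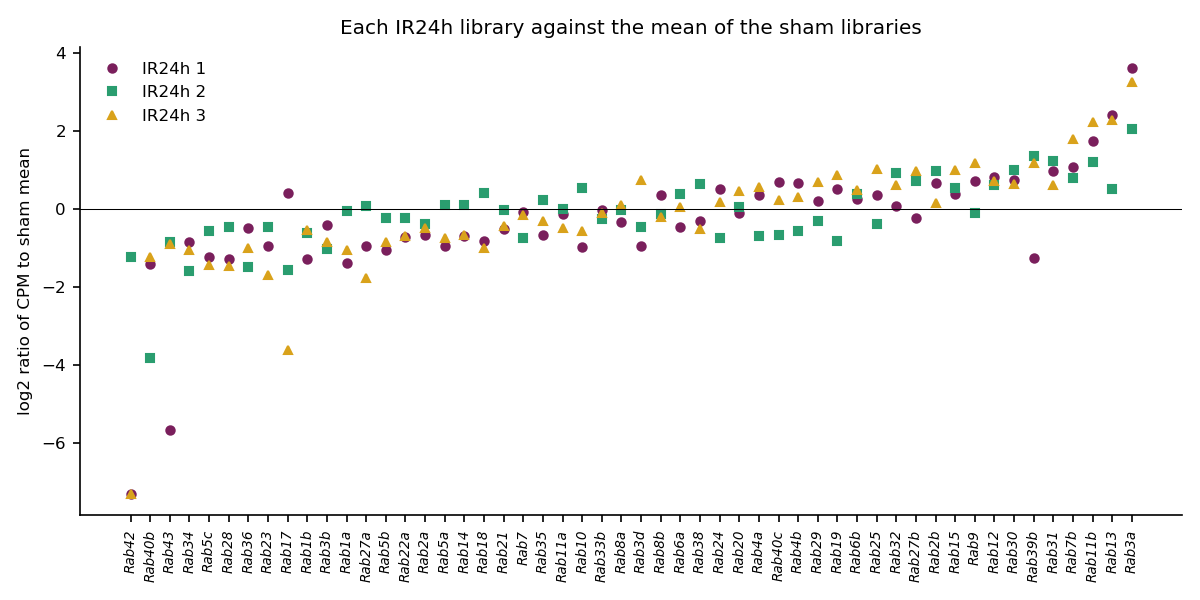
Log2 ratio of each injured library to the sham mean for the 52 tested Rab genes, from TMM-scaled CPM with 0.01 added, by IR24h library. IR24h library 2 has the highest value of the injured libraries for 24 genes and the lowest for 19.

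Around the Rab cycle, 6 lists of genes, with 158 genes of which 154 were tested, were examined beside the family. In all, 6 rose and 13 fell, which is 3.90% and 8.44% of those tested, against 8.65% and 7.62% of all genes, and their median log2 fold change was -0.24. Of the 36 exchange factors 1 rose and 2 fell. Rin1, an exchange factor of Rab5, rose by 2.88 on the log2 scale, and Rab3il1, a factor that acts on Rab8 and was named for Rab3, fell by 1.67; the implied lengths of both genes differ. Hps4, a subunit of the factor for Rab32 and Rab38, fell by 1.49. Of the 39 tested GAPs of 41, 4 fell and none rose: Tbc1d10a, Tbc1d16, Grtp1 and Tbc1d17, with log2 fold changes of -1.31, -1.16, -1.12 and -1.06. Tbc1d10a, which acts on Rab27 and Rab35, went from 56.8 ± 4.37 CPM (SD, n = 3) to 23.0 ± 5.40 CPM, without overlap.

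Effectors moved in both directions, with 5 of the 44 tested higher, 4 lower and a median log2 fold change of 0.21. The shares called were 11.4% higher and 9.09% lower, against 8.65% and 7.62% of all genes tested. Mical1, an oxidase that acts on actin, rose by 2.59 on the log2 scale, Micall2 by 2.20 and Micall1 by 1.51. Mical3 of the same list did not pass the test, at 0.74 (adjusted p = 0.336) with overlapping groups. Micall2, an effector of Rab13, went from 2.51, 2.64 and 1.94 CPM to 11.4, 9.66 and 11.8 CPM, without overlap. The implied length of Micall1 was lower in IR24h by 1.23 on the log2 scale. Sytl2, an effector of Rab27, rose by 2.05, with an implied length difference of -0.13 (log2, IR24h minus sham). Bicd2, a dynein adaptor of Rab6, rose by 0.96. Among those that fell, Rab11fip3, an effector of Rab11 that links it to dynein, had the highest level and went from 573, 577 and 548 CPM to 165, 200 and 135 CPM (log2 fold change -1.76, adjusted p = 0.00702), with implied lengths that differ by 0.25. Gorasp1 of the Golgi, Rilpl2 of the cilium and Appl2 of early endosomes were at -1.30, -1.13 and -0.92. The other Rab11fip genes of the list did not pass edgeR's test. Rab11fip1 was at 0.94 (adjusted p = 0.0521), with all injured libraries above all sham libraries. Rab11fip2, Rab11fip4 and Rab11fip5 were at -0.34, -0.05 and -0.84.

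Of the 22 subunits of the TRAPP, HOPS and CORVET complexes, which load Rab1 or tether early and late endosomes, 3 fell and none rose. That is 13.6% lower and 0% higher, against 7.62% and 8.65% of all genes tested. The median log2 fold change of the 22 was -0.57. Vps8, the subunit by which CORVET binds Rab5, fell by 2.12 on the log2 scale, from 59.3, 76.5 and 85.0 CPM to 12.9, 19.1 and 18.8 CPM. Trappc9 and the shared subunit Vps18 were at -1.40 and -0.81, and implied lengths differ for Vps8 and Trappc9. None of the 9 genes of prenylation and membrane extraction passed edgeR's test. Of the 9, 2 had an unadjusted p under 0.05, against 34.1% of all genes tested. Gdi2, the GDP dissociation inhibitor with the higher count, was at -1.02 (adjusted p = 0.155), and the escort protein gene Chml at 1.20 (adjusted p = 0.0807). The 4 kinases and phosphatases of Rabs, Lrrk1, Lrrk2, Ppm1h and Ppm1m, were not called (none had an unadjusted p under 0.05). Without IR24h library 2, 20 of the pathway genes were higher and 63 lower, which is 13% and 40.9% of those tested, against 23.9% and 24.5% of all genes. Without a sham library 2 to 3 were higher and 2 to 3 lower, where 3.31% to 3.73% of all genes were called in either direction.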

How the data were processed

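Total RNA of 3 sham and 3 IR24h renal cortex libraries was used. Counts per gene, and FPKM per gene computed by the authors, were deposited in 1 table. Per the submitters' processing notes, CASAVA 1.8 and TopHat2 2.0.6 were used and the builds mm10 and GRCh38 are named; for the counter, annotation and strand setting, the sources used here give none. For 83 genes, none a Rab gene, the sham columns hold no value, and they were left out. Library totals were 12877237 to 17061844 counts.

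Counts were tested as deposited with edgeR 4.0.16 in R 4.3.3 (TMM factors, the default filter on low counts, quasi-likelihood test, Benjamini-Hochberg adjustment over 13609 genes, threshold 0.05). Single ratios had the exact two-sided permutation test. Alternatives were other scalings, filters, DESeq2 1.42.0, limma-voom (limma 3.58.1), a replicate block, left-out libraries and, added after seeing the data, counts per implied length. Scripts were tested on simulated data. FPKM served only to order levels within a group. Gene positions and exon overlaps came from GENCODE on GRCm38, and promoters from RefSeq.

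The Rab genes and the lists were chosen with earlier results of these data known. Every library is given for called Rab genes, and every sham library for the 5 with the highest sham FPKM. Other Rab genes are named by log2 fold change where it is at least 1 in size, and the rest, with values by library for a few, were chosen after their values were seen. Of each pathway list, called genes are named, with at most the 3 highest and 3 lowest valued; uncalled ones named were chosen after their values were seen.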

Additional observations from a re-analysis of the deposited data

How the results depend on the processing

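The Rab counts, 4 higher and 1 lower, rested on few calls near the threshold. They were 4 and 1 with RLE scaling, without mitochondrial genes, with a mean CPM of at least 1 and per implied length, and 3 and 1 with no count filter or on genes of equal implied length only. They were 5 and 0 with upper-quartile scaling, 1 and 2 with library size only, 6 and 3 with DESeq2, 2 and 2 with limma-voom, and 6 and 7 with IR24h library 2 as the only injured library. Leaving out 1 library gave 0 to 7 higher and 0 to 15 lower; the 0s came without each sham library and, downward, without IR24h library 3. Without a sham library, 4 to 5 higher and 1 to 3 lower Rab genes had an unadjusted p under 0.05 and 3.31% to 3.73% of all genes were called. The cause was not tested. For the other pathway genes, 6 higher and 13 lower became 3 and 6 with library size only, 13 and 22 with DESeq2, 3 and 8 on genes of equal implied length, where fewer genes were tested, 27 and 27 with IR24h library 2 alone, and 2 to 20 higher and 2 to 63 lower without 1 library.

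Direction held in all 89 values of the 5 called Rab genes under the alternatives, 30 of which no longer passed the threshold. The 47 uncalled Rab genes gave 841 values, of which 31 passed the threshold in the direction seen on all libraries and 62, in 24 genes, had the other sign. Only 2 of these 62 passed it, Rab10 and Rab24 (-0.74 in place of 0.07), both with IR24h library 2 alone. Among the abundant Rab genes and those of larger change, the sign differed for Rab10 at 0.55 with IR24h library 2 alone and from -0.75 to 0.0883 without 1 library, the value above 0 coming without IR24h library 1, and Rab1b at 0.0417 per implied length.

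The labels do not say whether equal replicate numbers pair sham with IR24h libraries, and weak correlations cannot decide it. Deviations from the group means correlated at -0.11, 0.12 and 0.23 for the same number and at -0.265 to 0.179 for different numbers. IR24h libraries 1 and 3 correlated best with sham library 3, and IR24h library 2 with sham library 1. With the replicate block, 2 Rab genes were higher and 0 lower, and 5 and 9 pathway genes.

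Depth limits the Rab genes with few counts, such as Rab3a, Rab7b and Rab42. Overlap with other gene models limits further ones, such as Rab24, with 62.4% of its exon bases opposite Prelid1.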
